A study of Homo sapiens with 18 samples.

Results

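The introns of 9 human genes whose alternative exons remodel cell adhesion and the actin cytoskeleton were followed in SHEP.tet21n neuroblastoma cells: TPM1, TPM2, ACTN1, FN1, CD44, ITGA6, CTNND1, ENAH and NUMB. An intron was assigned to a gene when at least 1 of its splice sites coincided with an exon boundary of that gene in the GENCODE annotation. Of the 233650 introns with a usage value, 127 met this rule, lying in 34 clusters of introns that share splice sites. NUMB contributed 24 of them, CTNND1 21, FN1 16, ENAH 15, ACTN1 12, TPM1 11, CD44 10, and ITGA6 and TPM2 9 each. Of the 127, 106 matched an annotated intron exactly, 6 joined annotated sites in a combination that is not annotated and 15 had 1 annotated site.

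SHEP.tet21n cells carry a MYCN cDNA that doxycycline represses, and the study asked how the loss of SNRPD3, a core Sm protein of the spliceosomal small nuclear ribonucleoproteins, changes splicing when MYCN is on or off. The 18 RNA-seq libraries formed 6 groups of 3. Cells kept in 2 µg/mL doxycycline (MYCN-) or in DMSO (MYCN+) received a control siRNA (MYCN-/SNRPD3+, termed wildtype, and MYCN+/SNRPD3+) or 1 of a pair of siRNAs against SNRPD3, #1 or #2 (MYCN-/SNRPD3- and MYCN+/SNRPD3-). All groups are 1 cell line that carries the same transgene, so MYCN status and the presence of doxycycline cannot be told apart, and the labels do not say whether replicates were separate cultures, so that p-values measure the spread between these libraries. Each intron had a percent spliced in (PSI), here the share of the spliced reads of its cluster that span it. Read depth behind a PSI is unknown, and because PSI averages over all cells of a culture, a shift within each cell and a change in the mixture of cells cannot be told apart. PSI carries no transcript level, so the depletion of SNRPD3 and the level of MYCN were not checked by these values. The mesenchymal marker genes FN1, CD44, PRRX1 and YAP1 had 16, 10, 13 and 13 introns in the table. VIM and the epithelial CDH1, ESRP1 and ESRP2 had none, which says nothing of their expression because only introns in clusters of several are listed.

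These genes supply several layers of the link between the matrix and the cytoskeleton. Fibronectin (FN1) is a matrix ligand, integrin alpha6 (ITGA6) and CD44 are receptors for laminin and hyaluronan, p120-catenin (CTNND1) stabilises cadherins at the membrane, NUMB is an endocytic adaptor, and ENAH, alpha-actinin-1 (ACTN1) and the tropomyosins (TPM1, TPM2) extend, cross-link or coat actin filaments. Their alternative exons are textbook markers of epithelial against mesenchymal cells or of muscle against non-muscle cells. Exons are numbered here along the canonical GENCODE transcript of each gene, and the usual name is added where one exists.

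The actin-filament proteins switch between exons that mostly exclude each other, and these pairs carried most of the differences described here. Their hg38 sequences are shown for that reason, 5′ to 3′ on the transcribed strand, with the exon in capitals between the last 20 bases of the intron before it and the first 6 bases of the intron after it.
TPM2 exon 6a, chr9:35685064-35685139, minus strand: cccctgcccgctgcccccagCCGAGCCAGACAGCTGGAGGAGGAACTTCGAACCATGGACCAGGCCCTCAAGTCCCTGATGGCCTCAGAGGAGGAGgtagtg
TPM2 exon 6b, chr9:35684732-35684807, minus strand: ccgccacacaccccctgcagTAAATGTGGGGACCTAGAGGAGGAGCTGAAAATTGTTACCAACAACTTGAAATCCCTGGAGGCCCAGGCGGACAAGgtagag
TPM1 exon 6a, chr15:63061198-63061273, plus strand: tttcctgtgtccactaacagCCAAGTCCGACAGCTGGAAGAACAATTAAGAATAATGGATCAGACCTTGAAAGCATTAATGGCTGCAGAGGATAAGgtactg
TPM1 exon 6b, chr15:63061713-63061788, plus strand: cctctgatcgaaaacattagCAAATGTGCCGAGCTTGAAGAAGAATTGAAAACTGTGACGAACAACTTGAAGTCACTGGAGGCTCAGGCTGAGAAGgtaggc
ACTN1 exon 19, chr14:68878989-68879069, minus strand: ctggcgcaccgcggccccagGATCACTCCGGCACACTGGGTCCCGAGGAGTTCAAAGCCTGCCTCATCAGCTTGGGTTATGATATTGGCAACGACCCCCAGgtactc
ACTN1 exon 20, chr14:68878458-68878523, minus strand: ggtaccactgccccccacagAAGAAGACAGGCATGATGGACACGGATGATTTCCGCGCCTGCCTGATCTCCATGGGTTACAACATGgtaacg
Exons 6a and 6b are 76 bases long in both tropomyosin genes, and 6a precedes 6b. An intron that joins 6a to 6b averaged 2.68% of its cluster in TPM2, where it is not annotated, and 0.72% in TPM1. These introns were left out of the shares of 6b given below. The exons are more alike between the genes than within them: 6b of TPM1 and 6b of TPM2 were identical at 59 of 76 positions (77.6%) and the 6a exons at 52 (68.4%), whereas 6a and 6b were identical at 43 positions (56.6%) within TPM1 and 40 (52.6%) within TPM2. Of the 20 intron bases before the exon, 13 were pyrimidines for TPM1 6a and 10 for TPM1 6b, against 15 for TPM2 6a and 13 for TPM2 6b. Exons 19 and 20 of ACTN1 are 81 and 66 bases long, both a whole number of codons, and lie in the calmodulin-like domain, where exon 19 belongs to the calcium-sensitive non-muscle form and exon 20 to the smooth-muscle form.

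TPM2, which encodes beta-tropomyosin, showed the largest PSI difference with MYCN of the 9 genes. Exon 6b is the exon of the skeletal-muscle form and 6a that of the fibroblast and smooth-muscle form. The share of 6b among the introns that used either exon was 29.5, 24.9 and 31.8% in the wildtype libraries, 32.2, 25.9 and 38.2% with siRNA #1 and 31.0, 26.01 and 30.8% with siRNA #2 under MYCN repression. In the MYCN+ groups it was 52.3, 43.1 and 39.6% with control siRNA, 46.9, 47.2 and 41.7% with siRNA #1 and 46.1, 49.1 and 45.8% with siRNA #2. All 9 MYCN+ libraries were thus above all 9 MYCN- libraries, at 45.8% ± 3.86 against 30.0% ± 4.14 (SD, n = 9 each). The difference of 15.7 points had p = 0.00025 in an exact two-sided permutation test that exchanged labels within each siRNA group, the smallest p that its 8000 arrangements allow. It was 16.3 points with control siRNA, 13.2 with siRNA #1 and 17.8 with siRNA #2. Knockdown moved the share by 1.52 points (exact p = 0.464).

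Intron by intron, the TPM2 shift passed the test across all introns. The fits used log2 odds of PSI and took in 152722 introns, those whose PSI averaged at least 0.01 and at most 0.99, of which 105 belonged to the 9 genes, and limma's moderated test with Benjamini-Hochberg adjustment over all of them. For MYCN over all libraries, 1.23% of all introns and 9 of the 105 were called at an adjusted p under 0.05, 4 higher and 5 lower in MYCN+ cells. The intron from exon 5 into 6b of TPM2 rose by 7.65 points (log2 odds 0.82 ± 0.10 SE, limma adjusted p = 0.00211), and the intron from 6b to exon 7 rose by 8.02 points (0.67 ± 0.12, adjusted p = 0.0127). The intron from 6a to exon 7 fell by 6.48 points (log2 odds -0.44 ± 0.07, adjusted p = 0.0104). The intron from exon 5 into 6a had the largest PSI difference of the gene, -8.22 points, but varied more between replicates (log2 odds -0.54 ± 0.17, adjusted p = 0.175). TPM2 5 to 6b was also the only one of the 105 called between MYCN+/SNRPD3- and wildtype (8.07 points, log2 odds 0.87 ± 0.16, adjusted p = 0.0327), where 0.559% of all introns were called. At the 3′ end of TPM2, splicing of exon 8 to exon 9, the skeletal-muscle last exon (9a), ranged from 2.44 to 3.47% in MYCN- and from 2.89 to 4.48% in MYCN+ libraries, and the difference of 0.929 points missed the threshold (log2 odds 0.32 ± 0.08, adjusted p = 0.0674). The remaining splicing went to the last exon of the non-muscle form (9d).

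TPM1, the alpha-tropomyosin gene, moved the other way at its own 6a and 6b pair. Here too 6b belongs to the striated-muscle form, although several non-muscle forms use it. The 6b share was 14.9, 15.04 and 12.8% in wildtype, 15.1, 14.7 and 12.998% in MYCN-/SNRPD3- cells with siRNA #1 and 18.5, 17.5 and 18.4% with siRNA #2. The MYCN+ libraries had 11.2, 9.15 and 7.77% with control siRNA, 11.4, 9.22 and 8.97% with siRNA #1 and 13.8, 10.8 and 14.2% with siRNA #2. The 2 sets of 9 overlapped slightly over all groups but did not overlap within any of the 3 siRNA groups, where the MYCN+ minus MYCN- difference was -4.87, -4.43 and -5.23 points. Overall the share fell by 4.84 points, from 15.6% ± 2.12 to 10.7% ± 2.20 (SD, n = 9 each, exact p = 0.00025). The introns into and out of TPM1 6b were both called, at -2.03 points (log2 odds -0.50 ± 0.09, limma adjusted p = 0.0134) and -2.74 points (-0.52 ± 0.09, adjusted p = 0.0155). The largest PSI difference of TPM1 was that of the intron from 6a to exon 7, at 3.36 points, and was not called (adjusted p = 0.253). Between knockdown and control the 6b share of TPM1 was higher by 1.98 points (exact p = 0.0669), and in both MYCN states the group mean was highest with siRNA #2. For the intron from exon 5 to 6b, siRNA #2 minus siRNA #1 was 1.48 points (limma unadjusted p = 0.00598, adjusted p = 0.726).

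The alternative last exons of TPM1 also differed with MYCN. Exon 9 (9a) ends the striated-muscle coding sequence and exon 10 (9b) lies after it, while most transcripts of non-muscle cells end in a further downstream exon (9d). Splicing of exon 8 to exon 9 ranged from 1.25 to 1.64% in the MYCN- and from 1.79 to 2.75% in the MYCN+ libraries, and these ranges did not overlap. It rose by 0.859 points (log2 odds 0.45 ± 0.08, limma adjusted p = 0.0207). Exon 8 to exon 10 ranged from 0.854 to 1.57% and from 1.47 to 2.47%, a rise of 0.769 points (0.46 ± 0.09, adjusted p = 0.0271). Exon 8 to 9d took 96.4% ± 0.541 of the cluster in MYCN- and 94.5% ± 0.716 in MYCN+ libraries (SD, n = 9 each) and fell by 1.94 points (log2 odds -0.54 ± 0.10, adjusted p = 0.0200). Knockdown moved these 3 introns by at most 0.274 points.

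Upstream in TPM1, exon 2a of the smooth-muscle form competes with exon 2b. Splicing of 2a to exon 3 was 1.61, 1.302 and 0.507% in wildtype, 1.53, 1.12 and 0.526% with siRNA #1 and 1.38, 1.37 and 0.835% with siRNA #2 in MYCN- cells. It lay between 0.426 and 0.677% in all 9 MYCN+ libraries. Replicate 3 was the lowest library of each MYCN- group and reached the MYCN+ range in the wildtype and siRNA #1 groups. This intron was below the mean PSI needed for the fit and has no test.

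In ACTN1, whose product cross-links actin filaments at focal adhesions, the same comparison lowered the smooth-muscle exon. Of the splicing to exon 19 or 20, exon 20 took 5.87, 6.54 and 3.91% in wildtype, 5.34, 5.94 and 3.81% with siRNA #1 and 7.51, 7.30 and 5.65% with siRNA #2 in MYCN- cells. In MYCN+ cells it took 3.85, 2.55 and 1.49%, 3.30, 3.48 and 2.54%, and 5.396, 3.23 and 4.16%, respectively. The share fell by 2.43 points, from 5.76% ± 1.299 to 3.33% ± 1.11 (SD, n = 9 each, exact p = 0.00025), with overlap over all libraries and none within an siRNA group. The knockdown difference was 0.772 points (exact p = 0.209). The ACTN1 intron from exon 18 to 20 was called at -1.25 points (log2 odds -0.61 ± 0.13, limma adjusted p = 0.0347). The partner intron from exon 20 to 21 had -1.18 points (-0.54 ± 0.14, adjusted p = 0.0833). Exon 18 to 19, the intron of ACTN1 with the largest PSI difference for both factors, differed by 1.94 points for MYCN (adjusted p = 0.509) and -0.505 points for knockdown (adjusted p = 0.983).

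**Figure D1:**
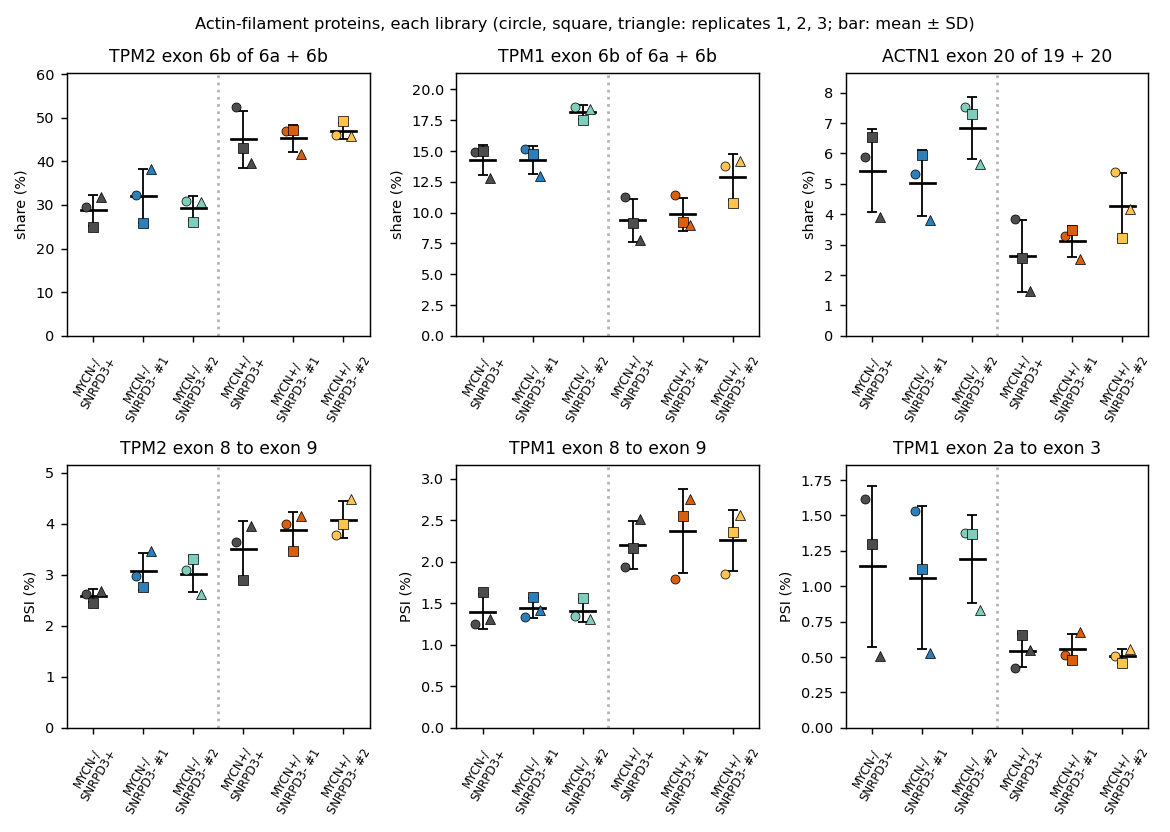
Share of the second exon of each mutually exclusive pair (top row, percent) and PSI of 3 further tropomyosin introns (bottom row, percent) in every library of the 6 groups, with the group mean and SD. TPM2 6b lies from 39.6 to 52.3% in MYCN+ and from 24.9 to 38.2% in MYCN- libraries, while TPM1 6b and ACTN1 exon 20 are lower in MYCN+ cells.

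Cassette exons are included or skipped as a unit, and for these the inclusion share was the mean PSI of the flanking introns over that mean plus the PSI of the skipping intron. Of 20401 such exon and skipping-intron sets in the table, 31 were in the 9 genes and 29 had a mean share that allowed a fit. For MYCN, 4.85% of the 18508 fitted sets were called, and 3 of the 29. An unadjusted p under 0.05 was found for 8 of the 29 (27.6%), against 21.3% of all sets. For knockdown, limma called 0% of all sets and none of the 29. Here 7 of the 29 (24.1%) had an unadjusted p under 0.05, against 2826 of all sets (15.3%). Inclusion tended to be lower after knockdown throughout the table: the median change was -0.21 log2 odds over all sets and -0.22 over the 29, of which 4 were above 0. The median change for MYCN was -0.14 over all sets and -0.15 over the 29. Of the 3 called sets, both of TPM1 restate the 6a and 6b exchange (adjusted p = 0.0129 and 0.0133), and the other was the EDA exon of FN1.

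Some of the cassette exons in the following results are shown as above, with the exon in capitals.
FN1 exon 33 (EDA), chr2:215380811-215381080, minus strand: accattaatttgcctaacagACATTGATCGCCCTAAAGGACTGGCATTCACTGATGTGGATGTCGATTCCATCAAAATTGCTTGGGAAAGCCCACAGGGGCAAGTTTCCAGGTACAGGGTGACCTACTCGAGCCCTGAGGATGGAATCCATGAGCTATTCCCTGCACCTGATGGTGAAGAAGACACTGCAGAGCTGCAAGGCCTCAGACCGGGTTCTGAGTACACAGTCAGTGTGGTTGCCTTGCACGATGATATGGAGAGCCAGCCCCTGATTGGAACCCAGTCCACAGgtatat
NUMB exon 12, chr14:73279281-73279424, minus strand: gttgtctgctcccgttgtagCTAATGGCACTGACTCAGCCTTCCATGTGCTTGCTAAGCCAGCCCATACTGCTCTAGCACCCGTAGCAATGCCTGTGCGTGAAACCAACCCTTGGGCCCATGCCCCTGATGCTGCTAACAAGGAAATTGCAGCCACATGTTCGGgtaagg
NUMB exon 6, chr14:73316390-73316422, minus strand: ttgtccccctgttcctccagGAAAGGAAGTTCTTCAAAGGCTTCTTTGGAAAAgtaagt
ENAH exon 11a, chr1:225504991-225505053, minus strand: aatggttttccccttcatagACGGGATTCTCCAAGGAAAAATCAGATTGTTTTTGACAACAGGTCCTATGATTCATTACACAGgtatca
CTNND1 exon 18, chr11:57814311-57814373, plus strand: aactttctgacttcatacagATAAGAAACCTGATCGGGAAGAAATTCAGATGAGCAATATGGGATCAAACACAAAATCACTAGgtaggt
Each of these exons is a whole number of codons long (270, 144, 33, 63 and 63 bases), so that inclusion adds residues without changing the frame. ITGA6 exon 25 (130 bases) and CTNND1 exon 3 (289 bases), described below but not shown, are not a whole number of codons long.

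Fibronectin is assembled from repeated modules, and its EDA and EDB exons each encode 1 extra type III repeat, typical of the cellular form made by fibroblasts and tumour stroma. EDA inclusion was 71.8, 71.0 and 58.2% in wildtype, 72.0, 68.8 and 59.0% with siRNA #1 and 70.1, 68.4 and 58.3% with siRNA #2 in MYCN- cells. The MYCN+ libraries had 79.5, 78.6 and 74.7%, 77.3, 79.3 and 74.5%, and 77.8, 81.3 and 70.5%, respectively. Within each siRNA group all MYCN+ libraries exceeded all MYCN- libraries, by 10.6, 10.4 and 10.97 points on average. EDA inclusion rose by 10.7 points, from 66.4% ± 6.03 to 77.1% ± 3.31 (SD, n = 9 each, log2 odds 0.74 ± 0.18 SE, limma adjusted p = 0.0351). Replicate 3 had the lowest EDA inclusion in all 6 groups. Without the 3 MYCN- replicate 3 libraries the change was 0.50 ± 0.16 (adjusted p = 0.112), without all 6 replicate 3 libraries 0.64 ± 0.13 (adjusted p = 0.0698), and with the replicate number as a block 0.74 ± 0.11 (adjusted p = 0.00311). The skipping intron had the largest PSI difference of FN1 (-7.34 points, adjusted p = 0.0621). After knockdown EDA inclusion differed by -0.849 points (log2 odds -0.06 ± 0.19, adjusted p = 0.919).

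EDB inclusion (FN1 exon 25, 273 bases) ran from 50.5 to 63.1% in the MYCN- and from 56.4 to 69.1% in the MYCN+ libraries. The MYCN difference of 6.52 points missed the threshold (log2 odds 0.39 ± 0.16, limma adjusted p = 0.189). Replicate 3 was again the lowest library in all 6 groups, and EDB was called once replicate number was blocked (0.39 ± 0.10, adjusted p = 0.0347). In the variable IIICS region (exon 40), an inner acceptor shortens the segment that holds integrin alpha4 beta1 binding sites. Use of the first inner acceptor in transcript order was 3.44% ± 0.265 in MYCN- and 2.64% ± 0.434 in MYCN+ libraries (SD, n = 9 each, -0.791 points, limma adjusted p = 0.0960). The acceptor that leaves the region out whole was used at 4.08 to 6.16%, with a MYCN difference of 0.591 points (adjusted p = 0.476). The largest FN1 difference after knockdown was -1.61 points for the small intron inside exon 40 (adjusted p = 0.897).

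**Figure D2:**
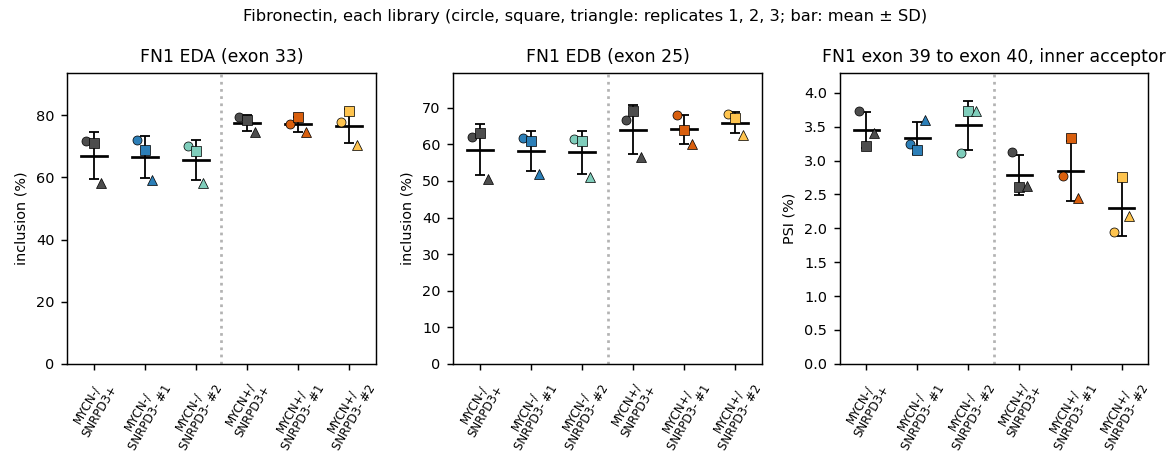
Inclusion of the EDA and EDB exons and PSI of the first inner acceptor of the IIICS region of FN1 (percent) in every library, with the group mean and SD. EDA inclusion averages 66.4% in MYCN- and 77.1% in MYCN+ libraries, and the triangles show that replicate 3 is the lowest library of each of the 6 groups for EDA and EDB.

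The replicates of the MYCN- groups shared such deviations more widely. Over the 105 fitted introns, deviations from the group means correlated at 0.266 to 0.859 between same-numbered libraries of different MYCN- groups (9 pairs) and at -0.650 to 0.205 between differently numbered ones (18 pairs). Introns of a cluster share reads, and the labels give no meaning to the numbers, so this is a description. In MYCN+ groups the same-numbered pairs had -0.310 to 0.403. Without the 3 MYCN- replicate 3 libraries, 4 of the 105 introns were called for MYCN in place of 9: TPM2 5 to 6b and 6b to 7, TPM1 5 to 6b, and ACTN1 18 to 20. Without all 6 replicate 3 libraries, 2 introns were called, TPM2 5 to 6b and 6b to 7, and 0 of the 29 cassette exon sets described above. With the replicate number as a block, 13 introns and 5 cassette sets were called. How many of all introns or sets these refits called was not counted, so whether the changes are particular to the 9 genes is unknown. The 4 added introns were those that skip EDA and EDB in FN1 (log2 odds -0.72 ± 0.09, adjusted p = 0.00266, and -0.39 ± 0.08, adjusted p = 0.0321), ACTN1 20 to 21 (-0.54 ± 0.09, adjusted p = 0.0199) and the TPM2 intron from 6a to 6b (-0.39 ± 0.07, adjusted p = 0.0179). The 2 added sets were EDB and ACTN1 exon 20 (-0.96 ± 0.17, adjusted p = 0.00869).

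CD44 carries a block of variable exons in its stem, and the standard form that joins exon 5 directly to exon 15 skips them all. The standard junction dominated every library, from 86.5 to 90.7% of the cluster. It was 87.7, 88.0 and 89.1% in wildtype and 87.2, 86.5 and 87.8% in MYCN+/SNRPD3+ libraries, against 87.5 to 90.7% in the 12 knockdown libraries. The knockdown difference of 1.80 points did not pass (log2 odds 0.24 ± 0.07, limma unadjusted p = 0.00518, adjusted p = 0.360), nor did the MYCN difference of -0.506 points (adjusted p = 0.820). Exon 14 (v10, 204 bases) was included at 1.95 to 3.53% and exon 7 (v3, 126 bases) at 0.999 to 1.79%. For v10 the knockdown difference was -0.547 points (adjusted p = 0.319). Splicing from exon 5 to exon 10 (v6) took 1.31 to 2.51%.

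ITGA6 exon 25 (130 bases) holds the cytoplasmic tail of alpha6A, and skipping it gives alpha6B. Its inclusion had a lowest value of 28.8% and a highest of 46.7% in MYCN- libraries, and 25.7% and 45.9% in MYCN+ libraries. Neither MYCN (-2.39 points, log2 odds -0.15 ± 0.21, limma adjusted p = 0.746) nor knockdown (-1.76 points, -0.11 ± 0.23, adjusted p = 0.852) passed the test. The spread between replicates exceeded both differences. The intron that skips exon 25 had the largest MYCN difference of ITGA6 (2.63 points, adjusted p = 0.870). The largest knockdown difference, 7.67 points for the intron from exon 1 to 2 (adjusted p = 0.753), came with a PSI of 58.9% in MYCN+/SNRPD3+ replicate 1, where the other 17 libraries had 94.2 to 99.9%, and the values of this cluster are partly repeated between libraries.

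CTNND1 encodes p120-catenin, whose early exons set which start codon is used: mesenchymal cells make the longer isoform 1 and epithelial cells the shorter isoform 3. Inclusion of exon 3 (289 bases, against the junction into exon 4) was 55.0, 48.0 and 37.6% in wildtype and 32.5, 41.8 and 41.4% in MYCN+/SNRPD3+ libraries. Over all groups it ranged from 28.9 to 61.0% with MYCN repressed and from 26.9 to 41.8% with MYCN expressed, and the difference of -8.49 points lay within that spread (log2 odds -0.49 ± 0.25, limma adjusted p = 0.275). Exon 18 (exon A, 63 bases) was included at 93.2 to 98.0% and differed by -1.14 points for MYCN (adjusted p = 0.220) and by -1.21 points for knockdown (adjusted p = 0.262). Exon 11 (exon C, 18 bases, which interrupts the nuclear localisation signal) was included at 0.722 to 2.34%. For exon B the table held only introns that skip it and none into or out of it, so its inclusion was not measured. The largest PSI differences of CTNND1 were -2.46 points for exon 3 to 4 with MYCN (adjusted p = 0.565) and -3.49 points for exon 1 to 2 with knockdown (adjusted p = 0.593).

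ENAH, the mammalian Ena protein that elongates actin filaments at the leading edge, has an epithelial exon 11a and an INV exon found in invasive carcinoma cells. Exon 11a was included at 2.04 to 4.15% over the 18 libraries and INV (57 bases) at 1.13 to 2.24%. The MYCN differences were 0.0549 points for 11a (log2 odds 0.02 ± 0.14) and -0.195 points for INV (-0.12 ± 0.11). The knockdown differences were -0.395 points (-0.16 ± 0.15) and -0.236 points (-0.12 ± 0.12), and the limma adjusted p of all 4 was at least 0.599. The largest PSI differences of ENAH were -1.34 points for exon 6 to 7 with MYCN (adjusted p = 0.894) and 2.03 points for exon 1 to 2 with knockdown (adjusted p = 0.762).

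NUMB held the largest exon differences after knockdown among the 9 genes, none of which passed adjustment. Its exon 12 (144 bases, usually called exon 9) lengthens the proline-rich region. Inclusion was 24.1, 22.7 and 22.8% in wildtype, and 21.6, 18.1 and 16.8% with siRNA #1 and 18.1, 17.8 and 14.8% with siRNA #2 in MYCN- cells, where all 6 knockdown libraries were below all 3 controls. In MYCN+ cells the control libraries had 24.9, 37.1 and 27.3%, those with siRNA #1 20.6, 27.0 and 21.1%, and those with siRNA #2 20.7, 30.5 and 18.9%, with overlap. The difference was -5.98 points for knockdown (log2 odds -0.47 ± 0.17, limma adjusted p = 0.213) and 5.71 points for MYCN (0.45 ± 0.16, adjusted p = 0.122).

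NUMB exon 6 (33 bases, usually exon 3) adds a stretch to the phosphotyrosine-binding domain. Its inclusion was 46.9, 33.1 and 35.6% in wildtype against 32.4 to 40.9% in the MYCN-/SNRPD3- libraries. It was 44.1, 35.0 and 34.6% in MYCN+/SNRPD3+ libraries, 26.01, 38.3 and 23.4% with siRNA #1 and 25.1, 29.2 and 18.2% with siRNA #2, so that 5 of 6 MYCN+/SNRPD3- libraries lay below all controls. Knockdown differed by -3.26 points with MYCN repressed and by -11.2 points with MYCN expressed. Whether these differ from each other was not tested for the inclusion of this exon. The averaged difference of -7.22 points was not called (log2 odds -0.47 ± 0.20, limma adjusted p = 0.275), and neither was that of MYCN (-5.93 points, adjusted p = 0.224). The intron that skips exon 6 had the largest PSI difference of NUMB for both factors, 4.37 points for knockdown (adjusted p = 0.555) and 4.18 for MYCN (adjusted p = 0.346). Exon 11 (147 bases) was included at 96.5 to 98.7% in the 6 control and 93.4 to 96.9% in the 12 knockdown libraries (log2 odds -0.92 ± 0.20, adjusted p = 0.0826), the lowest adjusted p of the 29 for knockdown. Exon 5 (75 bases) had 97.1 to 98.8% and 95.02 to 98.1% (-0.74 ± 0.19, adjusted p = 0.117).

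**Figure D3:**
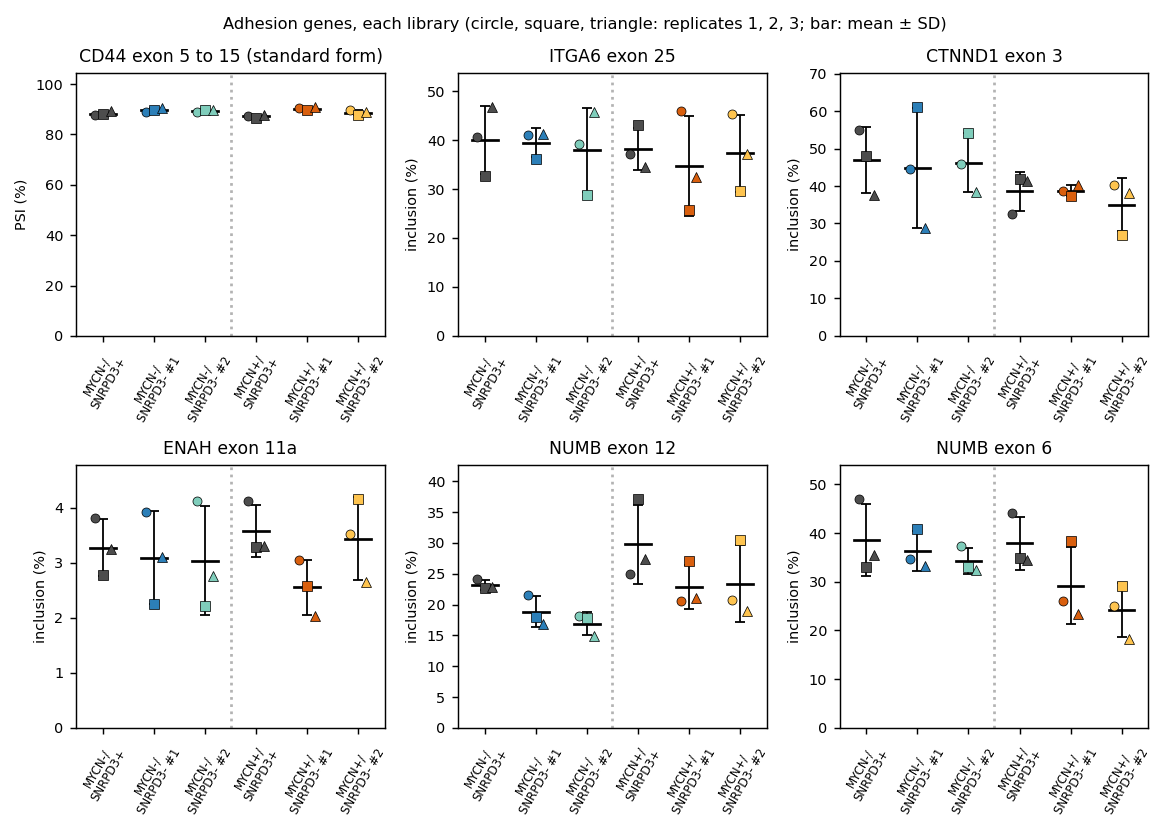
PSI of the standard CD44 junction and inclusion of ITGA6 exon 25, CTNND1 exon 3, ENAH exon 11a and NUMB exons 12 and 6 (percent) in every library, with the group mean and SD. CD44 stays between 86.5 and 90.7% and ENAH 11a between 2.04 and 4.15%.

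No intron of the 9 genes was called in the other comparisons. With control siRNA alone, MYCN+/SNRPD3+ against wildtype, 0.0543% of all introns were called and 0 of the 105, of which 14 had an unadjusted p under 0.05 (13.3%, against 6.19% of all introns). Knockdown with MYCN repressed called 0.0138% of all introns and 0 of the 105 (1 at an unadjusted p under 0.05, 0.952% against 4.69% of all introns). Knockdown with MYCN expressed called 0.0196% and 0 (9 unadjusted, 8.57% against 7.06% of all introns). Over all libraries knockdown called 0.0242% of all introns and 0 of the 105 (12 unadjusted, 11.4% against 7.80% of all introns). The test of whether knockdown acts differently with MYCN on or off called 0.0177% of all introns and 0 of the 105 (1 unadjusted, 0.952% against 3.98% of all introns). Both siRNAs against each other, a comparison chosen after the data were seen, called 0.0183% and 0 (4 unadjusted, 3.81% against 5.38% of all introns). These counts come from limma with 3 libraries per group.

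**Figure D4:**
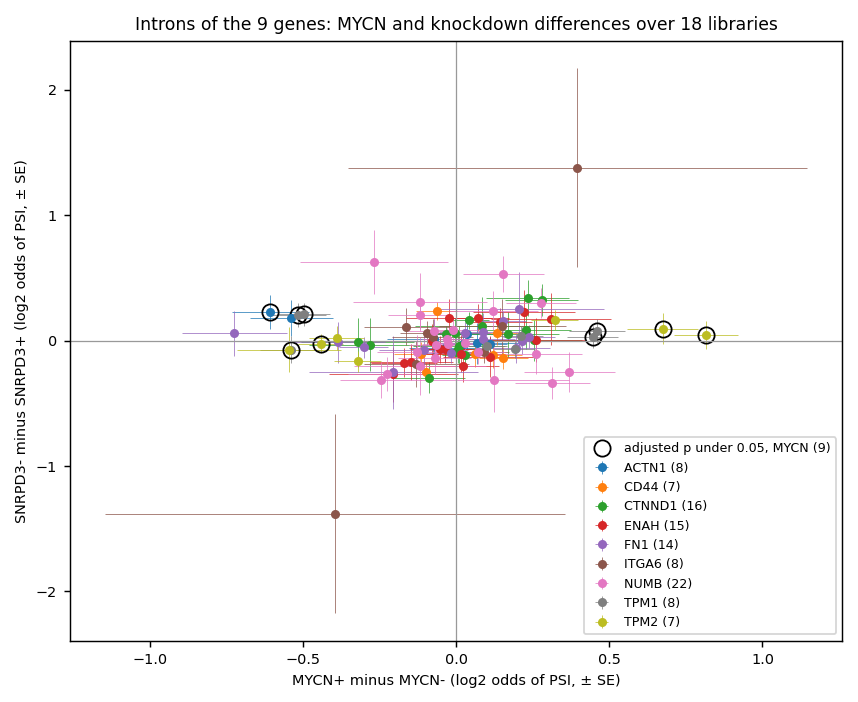
MYCN difference (x axis) against knockdown difference (y axis) in log2 odds of PSI, with SE, for the 105 fitted introns coloured by gene, where rings mark the 9 introns called for MYCN. All ringed introns belong to TPM1, TPM2 and ACTN1 and lie from -0.07 to 0.23 on the knockdown axis, while both ITGA6 introns with wide error bars are the exon 1 to 2 cluster.

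Genes of 2 wider lists were read in the same fits. In a panel of 20 genes with exons that differ between epithelial and mesenchymal cells, 354 introns were fitted. Beside 1.23% of all introns called and 11.7% at an unadjusted p under 0.05 for MYCN, and 0.0242% and 7.80% for knockdown, none of the 354 was called for knockdown over all libraries (32 unadjusted) and 18 were called for MYCN, 11 higher and 7 lower (78 unadjusted, median log2 odds change 0.01 against -0.003 over all introns). Introns of MACF1, CLSTN1, ABI1, PPFIBP1, MPRIP, LRRFIP2 and DST were among those called. A skipping intron of MACF1, a cytoskeletal cross-linker, rose from 59.4% in wildtype to 72.8% in MYCN+/SNRPD3+ libraries (log2 odds over all libraries 0.71 ± 0.10, adjusted p = 0.00418).

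In a list of 25 other adhesion and actin genes, 241 introns were fitted. None was called for knockdown over all libraries (19 unadjusted) and 10 for MYCN, 6 higher and 4 lower (45 unadjusted, median -0.01), in SVIL, ITGB1, MYL6, CALD1 and FLNA. An intron of MYL6, the essential light chain of non-muscle myosin, rose from 38.3 to 52.1% between the control groups (log2 odds over all libraries 0.86 ± 0.10, adjusted p = 0.00151). The main intron of a CALD1 cluster (caldesmon, an actin-binding regulator) fell from 88.4 to 82.4% (-0.61 ± 0.08, adjusted p = 0.00227). Between MYCN+/SNRPD3- and wildtype, 7 introns of the first list and 3 of the second were called, beside 0.559% of all introns.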

How the data were processed

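RNA from SHEP.tet21n cells was made into 18 stranded, poly(A)-selected TruSeq libraries and sequenced paired-end. According to the study's methods and processing notes, reads were aligned to hg38 with STAR 2.5.0a, handled with SAMtools 1.3.1, and junctions were clustered with leafcutter. The PSI values the authors deposited are fractions from 0 to 1 per intron and library. They hold no reads, so depth and counting error are unknown, and empty counts appear to have been smoothed (2 of the 127 introns have repeated values). Read strand is not given for clusters, and the splice sites of 27 introns also match another gene. A second deposited table of the authors' own comparisons (fold changes and p-values) was not used.

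Sites were matched to GENCODE v44 exon boundaries. PSI was transformed as log2((PSI + 0.01)/(1 - PSI + 0.01)) and fitted with group means in limma 3.58.1 (R 4.3.3) for introns with mean PSI from 0.01 to 0.99. Adjustment was Benjamini-Hochberg over all introns of a comparison, with a threshold of 0.05. Shares of exclusive exons were compared by exact two-sided permutation within MYCN status or siRNA group. Scripts were tested on simulated data. Named introns were textbook exons, every call, and the largest PSI difference per gene and factor. The 9 genes, both lists and the tests were chosen with earlier results of these data known, and 1 result of the first list is not reported here. Same-numbered replicates of different groups were checked for shared deviations over all fitted introns: 45 pairs correlated at -0.0509 to 0.0638, so the numbers were not used as a block in the main fits. Values with the block are given where they change a call for MYCN over all libraries, and only the count is given for MYCN+/SNRPD3- against wildtype. Replicates of a group correlated at 0.847 to 0.871. Alternatives were the offset, the scale, the filter, the replicate block, limma's trend and robust options, fits of only the groups compared and leaving out each library, and, chosen after seeing the data, only introns with 18 different values, leaving out the 3 MYCN- or all 6 replicate 3 libraries, and the comparison of both siRNAs.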

Additional observations from a re-analysis of the deposited data

Results flagged for a closer look

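For 2 NUMB introns, every knockdown library lay on one side of the mean of its control libraries with MYCN repressed and on the other side with MYCN expressed, although single knockdown and control libraries overlapped. The intron from exon 4 to 5 changed by -2.27 points with MYCN repressed and by 2.71 points with MYCN expressed, a difference of 4.98 points (limma unadjusted p of the interaction = 0.113). The intron into exon 4 from an exon that follows exon 3 changed by 0.572 and -1.14 points, a difference of -1.71 points (limma unadjusted p = 0.00454). Neither interaction passed adjustment over all introns. Both introns were picked by these opposite directions, so their unadjusted p-values are no separate test. How many of all introns meet the same rule was not counted. Of the 105 introns, 0.952% had an unadjusted interaction p under 0.05, against 3.98% of all introns.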

How the results depend on the processing

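The share of all introns or sets called under each alternative, the replicate block included, was not counted, so the counts here describe the 9 genes alone. Of the 105 fitted introns, the count called for MYCN over all libraries stayed between 7 and 10 when any 1 library was left out. It was 5 of 59 with mean PSI from 0.05 to 0.95, 4 without the 3 MYCN- replicate 3 libraries and 2 without all 6 replicate 3 libraries. In that last fit the cassette count of 3 became 0. The single call between MYCN+/SNRPD3- and wildtype became 2 with untransformed PSI, 2 with mean PSI from 0.05 to 0.95, 3 with only introns of 18 different values, 0 when the fit held just the compared groups, 0 without the MYCN- or all 6 replicate 3 libraries and 0 to 2 on leaving out 1 library. TPM2 5 to 6b lost that call without any one of the 9 libraries compared (adjusted p up to 0.148). With MYCN over all libraries, TPM2 5 to 6b and TPM2 6b to 7 were called under every alternative that included them, and TPM1 5 to 6b under all but the one without all 6 replicate 3 libraries (adjusted p = 0.0865). ACTN1 18 to 20 was lost on leaving out any of 13 libraries (adjusted p up to 0.0764; kept without the wildtype, MYCN-/SNRPD3- siRNA #1 and siRNA #2 replicate 3 libraries and MYCN+/SNRPD3+ or MYCN+/SNRPD3- siRNA #2 replicate 1), TPM1 8 to 10 and FN1 EDA on leaving out any of 11 (up to 0.0598 and 0.0661). ACTN1 18 to 20, TPM1 8 to 9 and TPM1 8 to 10 were also lost with untransformed PSI, an offset of 0.05 or limma's trend and robust options. The knockdown difference of the TPM1 6b share was 1.97 points from the upstream introns alone (exact p = 0.0492) and 1.57 to 2.44 points on leaving out 1 library (exact p = 0.0295 to 0.161). It passed without MYCN-/SNRPD3- siRNA #1 replicate 3, MYCN+/SNRPD3+ replicate 1, or MYCN+/SNRPD3- siRNA #1 replicate 2 or 3. No direction reversed among the called introns, called exons or called shares. The causes were not tested.

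With a replicate block, 13 introns were called for MYCN in place of 9, 2 in place of 1 between MYCN+/SNRPD3- and wildtype, and 5 cassette sets in place of 3, and all 9 stayed called. FN1 EDA then had an adjusted p of 0.00311. The block changed none of the knockdown or interaction counts, which were 0 under every alternative run.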
